A study of Mus musculus with 4 samples.

Results

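The genes examined here encode the nuclear-coded subunits of mitochondrial respiratory complexes II to V. They were taken by name: Sdha, Sdhb, Sdhc, Sdhd, Cyc1, and every symbol of the array annotation that starts with Uqcr, Cox4 to Cox8 or Atp5. Of 45 such symbols, 44 had a value on all 4 arrays, among 14077 symbols with such a value. The remaining symbol, Cox8c, the testis isoform, had no value on any array. The 44 genes comprise 4 of complex II, 8 of complex III, 14 of complex IV and 15 of complex V. Another 3 carry the prefix without being subunits: Cox4nb (now Emc8, of the endoplasmic reticulum membrane protein complex), Atp5s (now Dmac2l) and Cox7a2l, a factor for the assembly of respiratory supercomplexes. Each gene was read by 1 probe.

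Complex II oxidises succinate in the citric acid cycle and passes the electrons to ubiquinone. Complex III carries them from ubiquinol to cytochrome c, complex IV hands them to oxygen, and complex V, the ATP synthase, uses the resulting proton gradient to make ATP. Heart muscle is packed with mitochondria and depends on this chain for nearly all its ATP, and it uses tissue-specific (heart) isoforms of some complex IV subunits in place of the ubiquitous (liver) ones.

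The samples were left ventricles of male C57BL/6 mice, either wild type (WT) or labelled STIM1KO. STIM1 senses calcium in the endoplasmic reticulum and gates Orai channels when the store runs low. At 10 weeks of age the mice had transverse aortic constriction (TAC), a ligature tied around the aorta over a 0.3 mm wire that loads the ventricle with pressure, or a sham operation without banding, and the hearts were taken 4 weeks later, at 14 weeks. The 4 groups, WT sham and WT TAC with their STIM1KO counterparts, were each measured on 1 array, so no spread between animals is known, no test was made, and every difference below is a difference between arrays. The average heart weight to body weight values of the labels, given with no unit, are 4.1 for WT sham, 6.7 for WT TAC, 4.5 for STIM1KO sham and 4.9 for STIM1KO TAC. The STIM1KO allele, its zygosity, the cells it affects, and any pooling of RNA were not given in the sources used here.

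The Stim1 probe had intensities of 41.4 and 34.3 on the WT sham and WT TAC arrays, and 19.8 and 14.3 on the STIM1KO sham and STIM1KO TAC arrays. It was lower on both STIM1KO arrays, by log2 differences of -1.06 after sham and -1.26 after TAC, and the position of the probe relative to the deletion was not given. Values were present for 21115 to 21782 of 23473 probes per array. Cardiomyocyte markers were bright, with 14 of 16 measured and a summed intensity of 278269 to 323190, lowest on WT sham and highest on STIM1KO TAC. Their median log2 difference between TAC and sham was 0.06 for WT and 0.15 for STIM1KO, and between genotypes 0.05 after sham and -0.03 after TAC. Summed endothelial markers (15 genes) ranged from 18654 on STIM1KO sham to 22308 on WT sham, and fibroblast markers (13 genes) from 3883 on STIM1KO TAC to 6422 on WT sham. Summed macrophage and leukocyte markers (13 of 15) ranged from 2252 on STIM1KO sham to 2982 on STIM1KO TAC. Smooth muscle and pericyte markers (8 genes) ranged from 1411 on STIM1KO TAC to 2029 on STIM1KO sham. No measured marker had an intensity of 0 on any array. On STIM1KO sham against WT sham, 14 of 15 endothelial, 11 of 13 fibroblast and 12 of 13 macrophage markers lay below 0. Of all genes, 56.8% did. On STIM1KO TAC against WT TAC the counts below 0, in that order, were 11, 10 and 4 (45.8% of all genes). On STIM1KO TAC against STIM1KO sham they were 10, 5 and 4 (40.8% of all genes). There 6 macrophage markers were at least 1.5-fold higher (16.6% of all genes) and 0 lower (7.4% of all genes). The part of these markers in the results below was not tested. In bulk tissue, fewer cells of a type and less RNA per cell cannot be told apart.

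Nearly all of the genes gave bright signals. For 40 of the 44, the mean level lay above the 75th percentile of all genes, an intensity of 102.6, and 32 lay above the 99th percentile. The highest deposited intensity among them was 38415, below the highest value on any array, which ranged from 62746 to 70859. The other 4 were dim: Uqcrq, Cox6b2, Cox4i2 and Atp5s, with no intensity above 96.7. The Uqcrq probe, for a small subunit of complex III, read 3.38 and 2.69 on WT sham and WT TAC, and 3.87 and 3.29 on their STIM1KO counterparts, which lay below the first quartile of every array (5.38 to 5.64) and so carries little weight. Named pseudogenes exist for 7 of the 44 genes (Atp5c1, Atp5f1, Atp5k, Atp5l, Cox5b, Cox7c and Uqcrh), and cross-hybridisation was not tested.

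Between the lowest and the highest of the 4 arrays, 25 of the 44 genes spanned less than 1.5-fold, 18 spanned 1.5-fold to 2-fold, and Atp5a1 spanned more than 2-fold, joined by Cox6a2 with median centring, as deposited or with quantiles over shared probes. The median span was 0.54 on the log2 scale, against 0.42 for the 3520 genes at or above the 75th percentile of level, of which 72.1% spanned less than 1.5-fold. The STIM1KO TAC array held the highest value of 20 genes and the lowest of 14, where 42.1% of all genes had their highest and 29.2% their lowest value. WT sham held the highest value of 13 genes (25.1% of all genes) and WT TAC that of 10 (19.6% of all genes). STIM1KO sham held the highest value of 1 gene, the dim Uqcrq (13.2% of all genes). These counts depended on scaling: with median centring STIM1KO sham held the highest value of 8 genes and STIM1KO TAC that of 13.

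**Figure D1:**
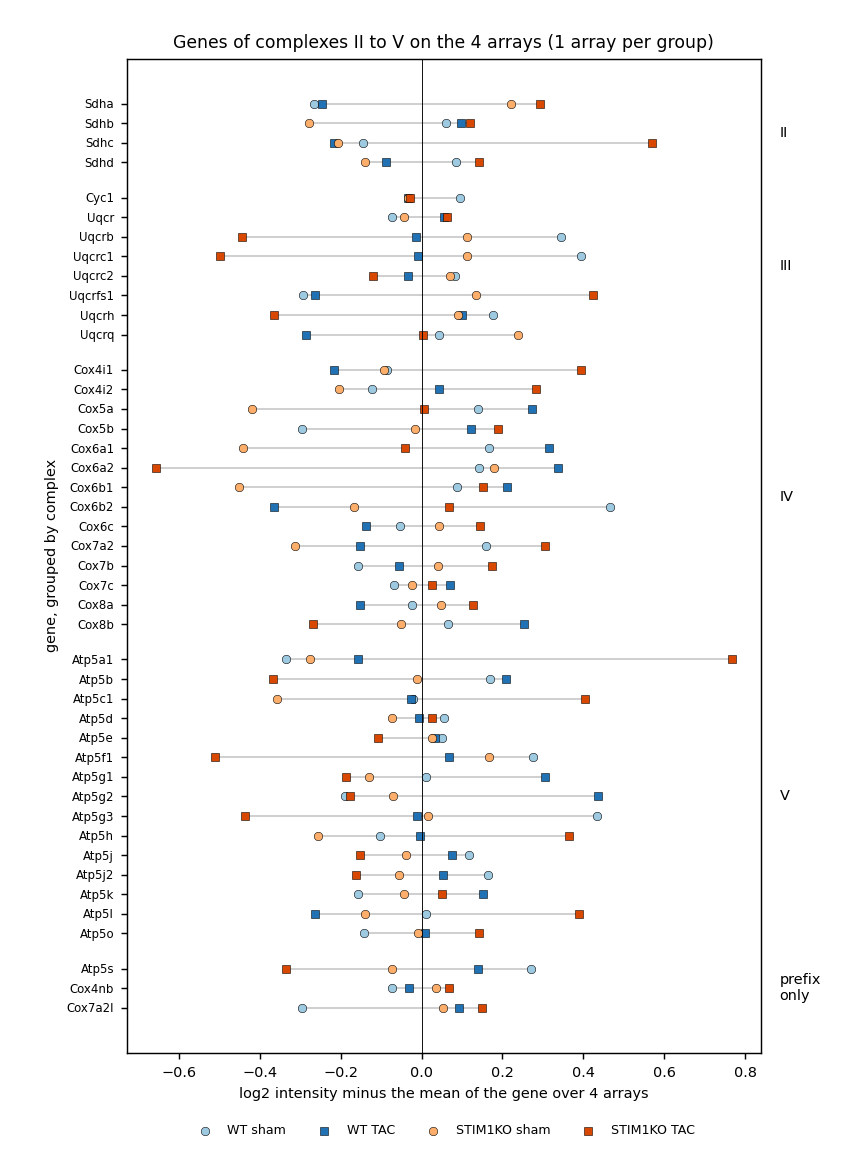
Each row is 1 gene, grouped by complex, and each point is 1 array, plotted as its log2 intensity minus the mean of that gene over the 4 arrays. Blue marks WT, orange STIM1KO, circles sham and squares TAC. STIM1KO TAC sits at 1 end of the row for many genes. It is on the high side for all 4 genes of complex II (3 under median centring or as deposited). It is lowest for 14 genes, 7 of them in complex V. These include Uqcrb, Uqcrc1, Uqcrh, Cox6a2, Cox8b, Atp5b, Atp5f1, Atp5g1 and Atp5g3. Of all genes, 42.1% had their highest and 29.2% their lowest value on STIM1KO TAC.

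In the wild-type heart, the transcripts of these complexes differed little between the TAC and the sham array. Of the 44 genes, 22 lay above 0 (50.9% of all genes did) and the median log2 difference was 0.01, equal to that of all genes. Only Atp5g2 was at least 1.5-fold higher (5.48% of all genes) and only the dim Cox6b2 at least 1.5-fold lower (4.42% of all genes). Among genes at or above the 75th percentile of level these shares were 1.59% and 0.682%. None reached 2-fold, as 1.12% of all genes did upward and 1.04% downward. The SD of the differences across the 44 genes was 0.26, against 0.36 over all genes and 0.24 over genes at or above the 75th percentile of level.

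The differences between the STIM1KO TAC and STIM1KO sham arrays were more widely spread, among these genes as among all genes. Of the 44 genes, 28 lay above 0 (59.2% of all genes), with a median of 0.10 against 0.11 for all genes and an SD across genes of 0.41. The SD was 0.53 over all genes and 0.39 over genes at or above the 75th percentile of level. At least 1.5-fold higher on STIM1KO TAC than on STIM1KO sham were 6 genes (16.6% of all genes): Atp5a1, Sdhc, Atp5c1, Atp5h, Cox7a2 and Cox6b1. At least 1.5-fold lower were 3 (7.4% of all genes): Cox6a2, Atp5f1 and Uqcrc1. The 6 higher genes are a smaller share of the 44 than of all genes, 13.6%, while genes at or above the 75th percentile of level reached this fold in 8.32% of cases upward and 3.86% downward. In this response 1 of the 44 genes was past 2-fold upward (5.16% of all genes), or none with median centring, and none downward (1.42% of all genes). The split at 1.5-fold depended on scaling. With each array centred on its median, 3 genes were higher and 5 lower (10.8% and 12.3% of all genes). On the values as deposited 6 were higher and 1 lower (14.8% and 8.51% of all genes). With quantiles over shared probes 4 were higher and 3 lower (12.0% and 10.9% of all genes). There Cox7a2 (0.582) and Cox6b1 (0.577) fell short of 1.5-fold. Centring moved the median of all genes in this comparison from 0.11 to -0.03, and that of the 44 genes from 0.10 to -0.03, so the 44 stayed within 0.02 of all genes under both.

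Between the sham hearts, 16 of the 44 genes lay above 0 on STIM1KO against WT (43.2% of all genes), with a median of -0.10 against -0.05 for all genes. None was at least 1.5-fold higher (3.88% of all genes), and 2 were at least 1.5-fold lower (8.38% of all genes), Cox6a1 and the dim Cox6b2. With each array centred on its median only 1 gene was that much lower (6.07% of all genes), and on the values as deposited 3 were (7.68% of all genes). Among genes at or above the 75th percentile of level 1.02% were that much higher and 2.81% lower. None was past 2-fold in either direction (0.767% of all genes upward and 2.14% downward).

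Between the TAC hearts, 24 of the 44 lay above 0 (54.2% of all genes), with a median of 0.02 against 0.05 for all genes. At least 1.5-fold higher on STIM1KO TAC than on WT TAC were 5 genes (12.2% of all genes): Atp5a1, Sdhc, Uqcrfs1, Atp5l and Cox4i1. At least 1.5-fold lower were 2 (10.5% of all genes), Cox6a2 and Atp5g2. Among genes at or above the 75th percentile of level 5.65% were that much higher and 6.02% lower. Median centring and the values as deposited each gave 3 higher and 6 lower instead, with 17 of 44 genes above 0 in each and medians of -0.06 and -0.05. Of all genes, 49.9% and 50.3% were above 0 under these scalings, 11.2% and 11.3% that much higher, and 12.4% and 12.2% lower. Of genes at or above the 75th percentile of level, 42.5% and 43.1% were above 0, and 10.7% and 10.4% that much lower. None of the 44 was past 2-fold (2.93% of all genes upward and 2.34% downward). Cox6a2 alone was, downward, with median centring, as deposited or with quantiles over shared probes. The comparisons share arrays, so that a value of the STIM1KO TAC array enters both the STIM1KO response and this comparison.

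The STIM1KO response minus the WT response was above 0 for 24 of the 44 genes (56.1% of all genes), with a median of 0.02 against 0.08 for all genes. It was at least 1.5-fold higher for 7 (17.5% of all genes), Cox6b2, Cox7a2, Atp5a1, Sdhc, Atp5l, Atp5c1 and Cox4i1, and at least 1.5-fold lower for 2 (8.85% of all genes), Cox6a2 and Atp5g2. Among genes at or above the 75th percentile of level these shares were 8.81% and 3.58%, against 15.9% and 4.55% of the 44. With median centring the split was 6 higher and 3 lower (13.3% and 13.1% of all genes). Under that scaling 16 of 44 were above 0, with a median of -0.07. Of all genes 46.3% were above 0 there, and of genes at or above the 75th percentile of level 35.5%. As deposited 21 of the 44 were above 0 (52.1% of all genes). Past 2-fold were the dim Cox6b2 upward (6.52% of all genes) and Cox6a2 downward (2.54% of all genes). Cox6b2 fell short of 2-fold with the offset (0.87) and with quantiles over shared probes (0.99), and Cox6a2 as deposited (-0.997). A WT response above 0 with a STIM1KO response below 0 was found for 5 genes (16.7% of all genes), and the opposite for 11 (25% of all genes). The responses of WT and STIM1KO, which share no array, had a Pearson correlation of 0.16 over the 44 genes and of 0.17 over all genes, which share the arrays and are not independent replicates.

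**Figure D2:**
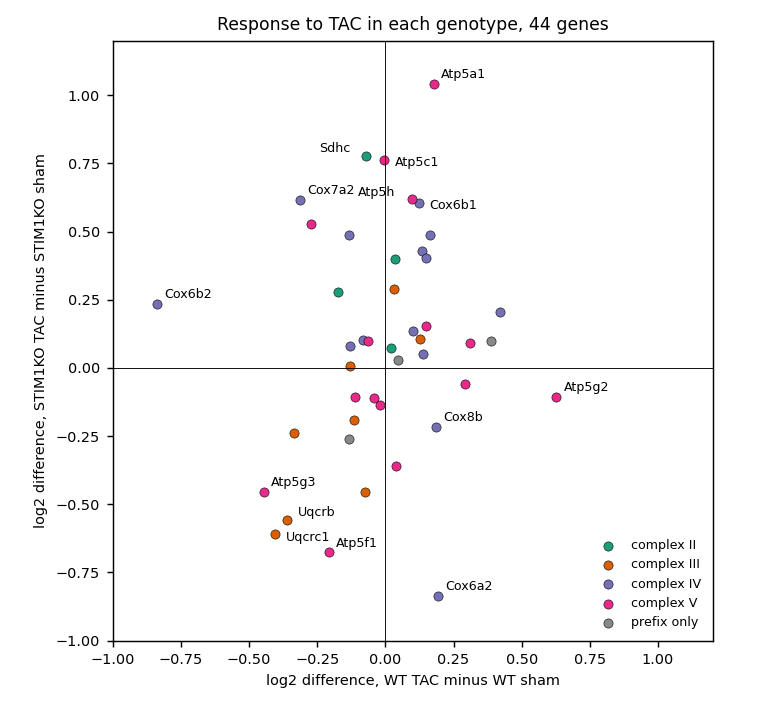
Each point is 1 of the 44 genes, coloured by complex, with its log2 difference between TAC and sham in WT on the x axis and in STIM1KO on the y axis. The points spread farther along the y axis (SD 0.41) than along the x axis (SD 0.26), as they did over all genes (0.53 and 0.36), with Atp5a1 at the top and Cox6a2 at the bottom.

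Complex II, which has only nuclear-coded subunits, had its highest value on STIM1KO TAC for all 4 genes (42.1% of all genes). With median centring or on the values as deposited this held for 3, and Sdhb was highest on WT TAC. The median log2 difference of complex II was 0.34 in the STIM1KO response and 0.39 between the TAC hearts, against 0.11 and 0.05 for all genes. All 4 genes lay above 0 in both comparisons (59.2% and 54.2% of all genes). Between the TAC hearts, though, Sdhb turned to -0.03 after median centring and to -0.02 on the values as deposited. The WT response had a median of -0.03, which turned to 0.05 with median centring and to 0.08 as deposited.

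Sdhc, a membrane anchor that helps to bind haem and ubiquinone, had intensities of 3423 and 3257 on the WT sham and WT TAC arrays, and 3277 and 5616 on the STIM1KO sham and STIM1KO TAC arrays. The first 3 arrays were close together and STIM1KO TAC stood above them, by a log2 difference of 0.78 from STIM1KO sham and 0.79 from WT TAC. Sdha, the flavoprotein that oxidises succinate, read 3382, 3428, 4738 and 4985 in that order of arrays, which is kept for every set of 4 intensities below. Here both STIM1KO arrays were higher than both WT arrays, by 0.49 after sham and 0.54 after TAC, and TAC made little difference within either genotype. Sdhb, the iron-sulfur subunit, read 5327, 5460, 4212 and 5552, with STIM1KO sham below the other arrays, and a STIM1KO response of 0.40. Sdhd, the other membrane anchor, read 5380, 4767, 4603 and 5588, with log2 differences of -0.18 in WT and 0.28 in STIM1KO. None but Sdhc reached 1.5-fold in any comparison.

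Complex III leaned the other way. Its highest value fell on WT sham for 5 of 8 genes (25.1% of all genes) and its lowest on STIM1KO TAC for 4 (29.2% of all genes). Its median response to TAC was -0.12 for WT and -0.21 for STIM1KO, against 0.01 and 0.11 for all genes. Both complex III medians stayed below 0 under the other scalings tried. The STIM1KO median then ran from -0.38 with median centring to -0.14 with the offset. Without the dim Uqcrq the complex III medians were -0.12 and -0.19. After TAC the genotypes differed by a median of -0.04, with 4 of 8 genes above 0 (54.2% of all genes). With median centring 2 of 8 were above 0 (49.9% of all genes).

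Uqcrc1, a core protein of complex III, had intensities of 13452 and 10165 on the WT sham and WT TAC arrays, and 11052 and 7239 on the STIM1KO sham and STIM1KO TAC arrays. It was highest on WT sham and lowest on STIM1KO TAC, lower after TAC in both genotypes by log2 differences of -0.40 and -0.61, and lower in STIM1KO after both operations, by -0.28 and -0.49. Uqcrb, the ubiquinone-binding subunit, read 17334, 13510, 14746 and 10024 and had the same order of arrays, with responses of -0.36 in WT and -0.56 in STIM1KO. Uqcrh, the hinge protein that helps cytochrome c to dock, read 12099, 11483, 11397 and 8317. Only its STIM1KO TAC value stood apart, with responses of -0.08 in WT and -0.46 in STIM1KO.

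Uqcrfs1, the Rieske iron-sulfur protein that passes electrons from ubiquinol to cytochrome c1, ran opposite to these. It read 3015 and 3080 on the WT sham and WT TAC arrays, and 4059 and 4957 on the STIM1KO sham and STIM1KO TAC arrays. Both STIM1KO arrays lay above both WT arrays, by 0.43 after sham and 0.69 after TAC, the same order of genotypes as for Sdha. Cyc1, the cytochrome c1 haem protein, spanned only 5332 to 5836, and Uqcr (now Uqcr11), a small subunit, 11290 to 12402. Uqcrc2, the other core protein, spanned 14831 to 17057, with its lowest value on STIM1KO TAC. Uqcr10, a subunit that the annotation lists under a clone name and that the choice by prefix missed, read 10324, 11130, 10054 and 12029. Its responses were above 0, at 0.11 in WT and 0.26 in STIM1KO, and the complex III counts and medians above leave it out.

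Complex IV had a median response of 0.13 in WT and 0.22 in STIM1KO, against 0.01 and 0.11 for all genes. Above 0 were 9 and 12 of its 14 genes (50.9% and 59.2% of all genes). Without the dim Cox4i2 and Cox6b2 the medians were 0.13 and 0.17. Under median centring 9 of 14 were above 0 in the STIM1KO response (47.4% of all genes), with a median of 0.14. Its catalytic core is made from mitochondrial DNA and is not among these genes. The highest value fell on WT TAC for 6 of the 14 (19.6% of all genes) and on STIM1KO TAC for 7 (42.1% of all genes). The lowest fell on STIM1KO sham for 5 (27.6% of all genes).

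Among the heart and liver isoforms, the gene with the widest span over the 4 arrays was Cox6a2, the heart and skeletal muscle isoform of subunit 6A. It had intensities of 23133 and 26456 on the WT sham and WT TAC arrays, and 23708 and 13277 on the STIM1KO sham and STIM1KO TAC arrays. STIM1KO TAC stood far below the other 3 arrays, by a log2 difference of -0.84 from STIM1KO sham and -0.995 from WT TAC. Its counterpart Cox6a1, the liver isoform, read 4093, 4534, 2681 and 3542, lower on both STIM1KO arrays than on both WT arrays, by -0.61 after sham and -0.36 after TAC. Cox6a1 was higher after TAC in both genotypes, by 0.15 in WT and 0.40 in STIM1KO.

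The heart minus liver isoform difference compares each gene only with itself across arrays and is free of any constant per array. For the Cox6a pair it was 0.05 for the WT and -1.24 for the STIM1KO response. Between genotypes it was 0.65 after sham and -0.64 after TAC, so the pair shifted towards the heart isoform on STIM1KO sham and towards the liver isoform on STIM1KO TAC.

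For subunit 8 the contrast was smaller. Cox8b, the heart isoform, read 30199 and 34391 on the WT sham and WT TAC arrays, and 27833 and 23958 on the STIM1KO sham and STIM1KO TAC arrays, highest on WT TAC and lowest on STIM1KO TAC. Cox8a, the liver isoform, read 3446, 3153, 3621 and 3827, with the opposite extremes, highest on STIM1KO TAC and lowest on WT TAC, although with median centring its log2 difference from STIM1KO sham to STIM1KO TAC was -0.08. The heart minus liver difference was 0.32 for the WT and -0.30 for the STIM1KO response, and -0.19 after sham and -0.80 after TAC between genotypes. After TAC both heart isoforms were thus lower on the STIM1KO than on the WT array, relative to their liver counterparts, while after sham the pairs pointed in opposite directions.

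Subunit 7A could not be paired, since the heart isoform Cox7a1 was not analysed here. Its liver isoform Cox7a2 read 13580 and 10938 on the WT sham and WT TAC arrays, and 9791 and 15021 on the STIM1KO sham and STIM1KO TAC arrays. TAC went with a lower value in WT, by -0.31, and a higher value in STIM1KO, by 0.62. Cox4i1, the ubiquitous isoform of subunit 4, through which ATP slows the enzyme, read 21918, 19993, 21812 and 30543, with STIM1KO TAC 0.61 above WT TAC and the other 3 arrays close together. Cox4i2, the lung isoform that responds to oxygen, was dim, at 63.9, 71.7, 60.4 and 84.7.

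**Figure D3:**
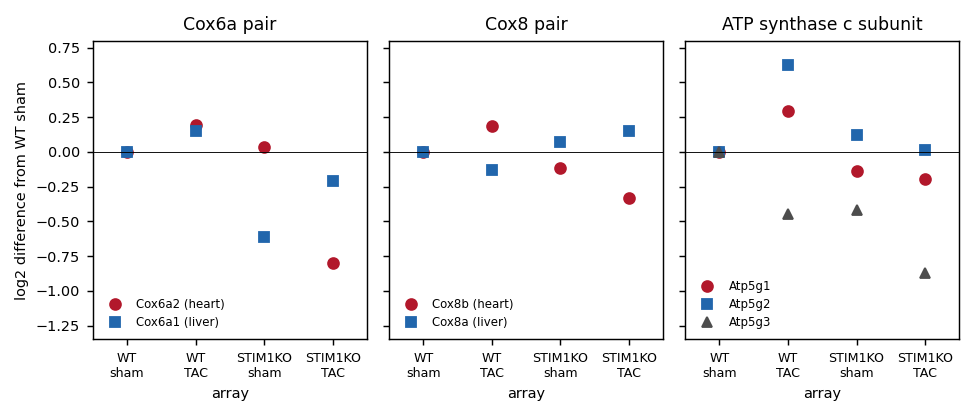
Each panel shows isoform genes of 1 subunit on the 4 arrays as the log2 difference from WT sham, with 1 array per group and no error. Cox6a2 and Cox8b, the heart isoforms, are lowest on STIM1KO TAC, where the liver isoforms Cox6a1 and Cox8a lie above them. All 3 c subunit genes are lower on STIM1KO TAC than on WT TAC.

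To show the regulatory sequence beside these isoforms, the 250 bases before the transcription start are given, read in the direction of transcription. They came from the RefSeq promoter set used here (assembly GRCm38.p6), in which no window was matched for Cox6a2. Capitals mark matches, on either strand, to the NRF1 core (GCGCATGC), the ETS core bound by GABP (CCGGAAG), the ERR site (AAGGTCA) or the Sp1 GC box (GGGCGG), factors known to bind promoters of respiratory genes. The NRF1 core can match on both strands at overlapping positions.
Cox6a1 (chr5:115348959-115349208, minus strand): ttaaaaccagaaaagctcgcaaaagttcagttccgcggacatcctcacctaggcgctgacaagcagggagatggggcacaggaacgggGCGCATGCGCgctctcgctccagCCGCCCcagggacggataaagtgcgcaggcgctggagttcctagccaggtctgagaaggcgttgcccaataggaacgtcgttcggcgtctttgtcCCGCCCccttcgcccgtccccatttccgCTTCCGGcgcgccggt
Cox8b (chr7:140900447-140900696, minus strand): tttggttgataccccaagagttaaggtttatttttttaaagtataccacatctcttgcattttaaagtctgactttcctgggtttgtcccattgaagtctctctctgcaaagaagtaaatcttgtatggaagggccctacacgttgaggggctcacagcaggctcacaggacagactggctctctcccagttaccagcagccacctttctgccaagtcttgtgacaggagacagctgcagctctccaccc
Cox8a (chr19:7217617-7217866, minus strand): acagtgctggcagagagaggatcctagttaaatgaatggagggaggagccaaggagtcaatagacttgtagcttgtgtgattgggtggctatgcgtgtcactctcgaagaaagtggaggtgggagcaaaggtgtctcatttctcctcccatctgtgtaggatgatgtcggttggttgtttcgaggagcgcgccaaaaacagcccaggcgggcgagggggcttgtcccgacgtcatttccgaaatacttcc
The liver isoform Cox6a1 held the NRF1 core, the ETS core and Sp1 boxes, and neither Cox8 window held any of them. A match is only a run of letters, and its absence says only that these letters are not in this window.

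The other complex IV subunits have no heart and liver pair. Cox5a and Cox6b1, the latter at the interface of the dimer, were lowest on STIM1KO sham. Cox5a read 5926 and 6498 on the WT sham and WT TAC arrays, and 4018 and 5402 on the STIM1KO sham and STIM1KO TAC arrays, and Cox6b1 read 24923, 27122, 17139 and 26040. For both, STIM1KO sham stood below the other 3 arrays, by -0.56 and -0.54 from WT sham, short of 1.5-fold, which Cox6b1 passed on the values as deposited (-0.60). In the STIM1KO response Cox5a differed by 0.43 and Cox6b1 by 0.60. Cox5b, a zinc-binding subunit, read 18241, 24397, 22174 and 25544, with WT sham lowest and a WT response of 0.42. Cox6c (14621 to 17768), Cox7b (21599 to 27199) and Cox7c (20373 to 22420), small membrane subunits, spanned little. Cox6b2, the testis isoform of subunit 6B, was dim, at 32.6, 18.3, 21.0 and 24.7, with its WT sham value above the others.

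Complex V had medians close to 0 in both responses, -0.01 in WT and -0.06 in STIM1KO, and the WT median turned to 0.04 with median centring and 0.07 as deposited, and the STIM1KO median was -0.14 with median centring. In the STIM1KO response, 7 of the 15 genes lay above 0 (59.2% of all genes), 3 were at least 1.5-fold higher (16.6% of all genes) and 1 at least 1.5-fold lower (7.4% of all genes).

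Subunits of the same part of the enzyme pointed in opposite directions. In the catalytic F1 head, Atp5a1, the alpha subunit, read 5221 and 5908 on the WT sham and WT TAC arrays, and 5439 and 11206 on the STIM1KO sham and STIM1KO TAC arrays. The last value stood far above the other 3, by 1.04 from STIM1KO sham and 0.92 from WT TAC, and Atp5a1 was the only 1 of the 44 genes past 2-fold in the STIM1KO response, at 0.99 with median centring. Atp5b, the beta subunit that sits beside it in the same hexamer and holds the catalytic sites, read 24308, 24999, 21456 and 16746. Its lowest value fell on STIM1KO TAC, -0.36 from STIM1KO sham and -0.58 from WT TAC. Atp5c1, the gamma subunit of the rotating shaft, read 10838, 10796, 8582 and 14541, lowest on STIM1KO sham and highest on STIM1KO TAC. Atp5d (delta) spanned only 13309 to 14565 and Atp5e (epsilon) 11094 to 12400.

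The peripheral stalk, which holds the head still while the shaft turns, showed the same division. Atp5f1, its b subunit, read 21188, 18358, 19655 and 12294, and STIM1KO TAC stood lowest, -0.68 from STIM1KO sham and -0.58 from WT TAC. Atp5h, its d subunit, read 12016, 12871, 10816 and 16610, and STIM1KO TAC stood highest, 0.62 from STIM1KO sham. Atp5j (coupling factor 6) spanned 8381 to 10087 with its lowest value on STIM1KO TAC, and Atp5o (the oligomycin sensitivity protein) spanned 683 to 832.

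Among the membrane subunits, the c ring is the rotor through which protons flow. Its subunit is made from 3 genes, Atp5g1, Atp5g2 and Atp5g3, which encode the same mature protein with different import sequences. Atp5g1 read 5591 and 6852 on the WT sham and WT TAC arrays, and 5073 and 4875 on the STIM1KO sham and STIM1KO TAC arrays, highest on WT TAC. Atp5g2 read 5152, 7956, 5599 and 5204, with WT TAC well above the other 3 arrays and a WT response of 0.63. Atp5g3 read 38281, 28126, 28664 and 20930, with WT sham highest, STIM1KO TAC lowest, and nearly equal responses of -0.45 in both genotypes. The Atp5g3 responses in WT and STIM1KO were less alike with median centring (-0.365 and -0.589) and as deposited (-0.335 and -0.488). Between the TAC hearts all 3 were lower in STIM1KO, by -0.49, -0.61 and -0.43. Atp5g2 passed 1.5-fold there, as did Atp5g3 with median centring and on the values as deposited (-0.60 in both).

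The windows before the starts of these 3 genes, which share a protein product but not an order of arrays, are given from the same RefSeq table, with capitals as above.
Atp5g1 (chr11:96075632-96075881, minus strand): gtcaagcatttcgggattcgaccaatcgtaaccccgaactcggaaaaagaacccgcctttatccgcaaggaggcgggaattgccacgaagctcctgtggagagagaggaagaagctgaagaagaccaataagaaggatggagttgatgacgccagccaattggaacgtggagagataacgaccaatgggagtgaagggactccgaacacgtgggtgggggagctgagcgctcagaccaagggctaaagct
Atp5g2 (chr15:102671048-102671297, minus strand): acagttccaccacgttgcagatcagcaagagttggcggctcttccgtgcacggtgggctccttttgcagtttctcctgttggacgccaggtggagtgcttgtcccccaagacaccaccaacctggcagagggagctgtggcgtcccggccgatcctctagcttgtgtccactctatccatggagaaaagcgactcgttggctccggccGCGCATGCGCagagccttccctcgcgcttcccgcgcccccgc
Atp5g3 (chr2:73911327-73911576, minus strand): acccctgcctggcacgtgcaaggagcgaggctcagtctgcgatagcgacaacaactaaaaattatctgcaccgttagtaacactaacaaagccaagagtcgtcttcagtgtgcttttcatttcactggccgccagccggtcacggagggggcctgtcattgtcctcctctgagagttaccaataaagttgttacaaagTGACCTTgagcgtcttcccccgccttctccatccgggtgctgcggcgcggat
Atp5g2 held the NRF1 core, Atp5g3 the ERR site, and Atp5g1 none of the motifs searched.

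The remaining membrane subunits support dimers of the synthase. Atp5l, subunit g, read 17856, 14767, 16089 and 23211, lower after TAC in WT by -0.27 and higher in STIM1KO by 0.53, with STIM1KO TAC highest. Its window, shown because it held the NRF1 core, the ETS core and the ERR site, was as follows.
Atp5l (chr9:44920743-44920992, minus strand): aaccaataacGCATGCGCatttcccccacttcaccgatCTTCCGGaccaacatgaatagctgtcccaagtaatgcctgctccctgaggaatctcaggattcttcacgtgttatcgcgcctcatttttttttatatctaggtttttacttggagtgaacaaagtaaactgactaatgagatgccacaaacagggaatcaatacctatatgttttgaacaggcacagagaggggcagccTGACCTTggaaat
Atp5j2 (subunit f) spanned 14062 to 17641 and Atp5k (subunit e) 6774 to 8391. Atp5mpl, a small subunit that the annotation lists under a clone name, read 8055, 7109, 7500 and 8022.

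Promoter windows could be matched for 31 of the 41 subunit genes, as 34 windows. The NRF1 core was in 5 of them (14.7%, against 2.26% of all 32851 windows) and the ETS core in 9 (26.5%, against 6.91%). The ERR site was in 2 (5.88%, against 4.08%) and the Sp1 GC box in 9 (26.5%, against 32.7%). The MEF2 site and the CArG box were searched on both strands as letter patterns that allow alternative bases at some positions. They were in none of the windows of these genes, against 2.92% and 1.47% of all windows. Median GC content was 54.8% in the windows of these genes and 52.4% in all windows.

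Of the 3 genes that share only the prefix, Cox7a2l read 2524 on WT sham and 3213 to 3436 on the other arrays, with a WT response of 0.39. Cox4nb spanned 207 to 228. Atp5s was dim and highest on WT sham, at 96.7, and lowest on STIM1KO TAC, at 63.5.

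Other gene groups of the mitochondrion are given for comparison. In the STIM1KO response the 35 complex I subunits had a median of 0.17, the 13 measured genes of the tricarboxylic acid cycle -0.11 and the 77 mitochondrial ribosomal proteins -0.04. Between the TAC hearts the medians were 0.13, -0.10 and -0.01. Complex I subunits thus lay between complex II and complex V in both comparisons, and these differences between groups were not tested.

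**Figure D4:**
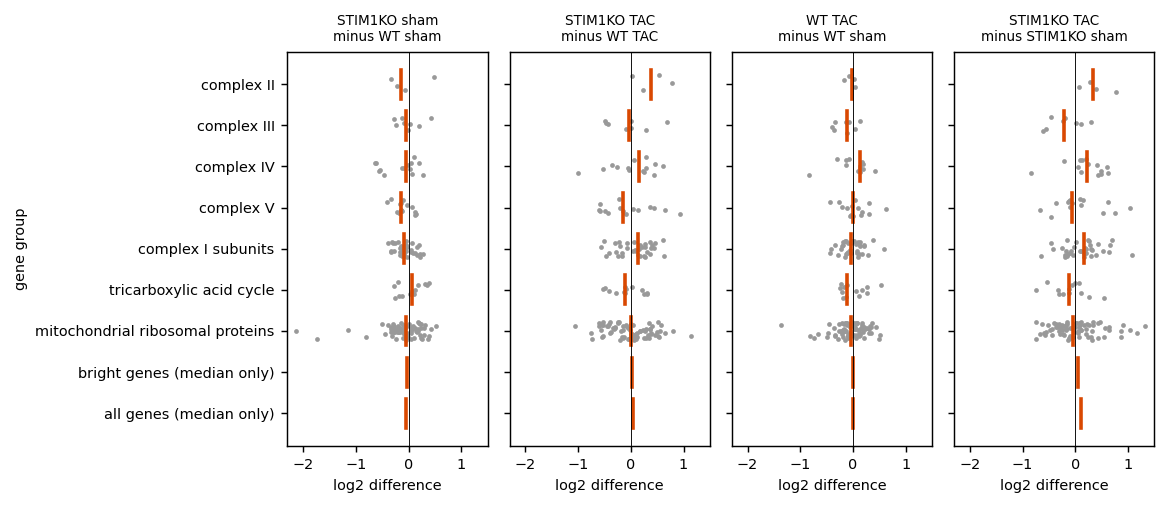
Each grey point is 1 gene and each orange bar the median of its group, for 4 comparisons in log2 differences, with only the median drawn for all genes and for genes at or above the 75th percentile of level. Complex II medians are 0.34 in the STIM1KO response and 0.39 between the TAC hearts, and complex III medians -0.21 and -0.04. The medians of all genes are 0.11 and 0.05.

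The factors that build and serve these complexes were read in the same way. Of 28 complex IV assembly and copper delivery genes, 22 were measured, and in the STIM1KO response 2 were at least 1.5-fold higher (16.6% of all genes) and none lower (7.4% of all genes). These were Cmc2, at 545 on STIM1KO sham and 929 on STIM1KO TAC, and Coa5, at 49.5 and 81.0. Coa4 was lower than on WT sham, where it read 239, on each of the other arrays (150, 155 and 110). Between the TAC hearts Cox10, which makes the haem precursor of complex IV, was higher in STIM1KO by 0.65, Lrpprc, which stabilises mitochondrial mRNA, was higher by 0.62, and Coa3 was lower by -0.65.

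Of 14 assembly factors of complexes II, III and V, 12 were measured, and between the TAC hearts 1 was at least 1.5-fold higher (12.2% of all genes) and 2 lower (10.5% of all genes). Bcs1l, which inserts the Rieske protein into complex III, read 154 and 172 on the WT sham and WT TAC arrays, and 140 and 91.0 on the STIM1KO sham and STIM1KO TAC arrays. It was lowest where Uqcrfs1, the transcript of that protein, was highest. Tmem70, needed to assemble complex V, read 529, 597, 450 and 353, also lowest on STIM1KO TAC. The brighter Uqcc2 went the other way, at 3166, 2728, 2892 and 4035, highest on STIM1KO TAC, with a difference of responses of 0.70. Lyrm7, the chaperone of the Rieske protein, was dim, at 8.74 to 15.1, and highest on STIM1KO TAC.

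Of 20 carriers and other partners, 18 were measured, and between the TAC hearts 2 were at least 1.5-fold higher (12.2% of all genes) and 1 lower (10.5% of all genes). Coq9, which serves ubiquinone synthesis, differed by -0.77 in the WT response and by 0.98 between the TAC hearts. In the STIM1KO response Coq2 differed by -0.793 and Coq4 by 0.615. Opa1, which shapes the inner membrane, was 0.87 higher on STIM1KO sham than on WT sham, from a dim 22.2 to 40.5. Cycs, cytochrome c itself, spanned 2737 to 3126, and Ndufa4, now counted with complex IV, spanned 15798 to 17512. The ATPase inhibitor Atp5if1 was not analysed here.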

How the data were processed

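The authors deposited linear intensity values, 1 for each probe of an array, scaled so that every array has a median of about 20. Per the labels' protocols, amino allyl aRNA made from total RNA was coupled to Cy5. No source used here gives the scanner, background correction or rule for empty cells. Groups were read from the array titles. The deposited intensity values were taken to log2 and quantile-normalized between arrays (limma 3.58.1, R 4.3.3), keeping empty cells empty. For each annotation symbol the brightest probe stood for the gene. Calls were made at 1.5-fold (0.585 on the log2 scale). The number of arrays limits the precision. The steps were tested on simulated data. Alternatives were median centring, values as deposited, an offset of 5.49 before log2, the mean over probes, current symbols, subunits only and a 2-fold threshold. Chosen after seeing the data were leaving out the 4 dim genes and quantile normalization over probes with a value on all 4 arrays. All 44 genes are named. Of the partner lists, some of the genes at or beyond 1.5-fold in any comparison are named, and Cycs, Ndufa4 and Atp5if1 whatever their values. Uqcr10 and Atp5mpl were added after their values were seen. Promoter windows and pseudogenes came from RefSeq tables of assembly GRCm38.p6. The genes and lists were chosen with earlier results of these data known.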

Additional observations from a re-analysis of the deposited data

Results flagged for a closer look

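For 8 of the 44 genes the responses to TAC lay on opposite sides of 0 in WT and STIM1KO and differed by at least 1.5-fold. The median of complex II also lay on opposite sides of 0. With 1 array per group, none of these differences was tested. Over all genes, 16.7% had a WT response above 0 with a STIM1KO response below 0, and 25% the opposite. For 17.5% of all genes the difference of responses was at least 1.5-fold higher, and for 8.85% lower. The share of all genes that meets both conditions was not computed. The difference of responses, STIM1KO minus WT, was 1.07 for Cox6b2 (dim, -0.84 in WT and 0.24 in STIM1KO) and 0.93 for Cox7a2 (-0.31 and 0.62). It was 0.85 for Sdhc (-0.07 and 0.78), 0.80 for Atp5l (-0.27 and 0.53), 0.77 for Atp5c1 (-0.01 and 0.76) and 0.62 for Cox4i1 (-0.13 and 0.49). It was -1.03 for Cox6a2 (0.19 and -0.84) and -0.73 for Atp5g2 (0.63 and -0.10). The complex II medians were -0.03 in WT and 0.34 in STIM1KO, which differ by 0.36, or by 0.22 with median centring (0.05 and 0.27). The sign of the WT response of Sdhc, Atp5c1 and the complex II median turned under another scaling.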

How the results depend on the processing

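At a threshold of 2-fold in place of 1.5-fold, the WT response had 0 higher and 0 lower of the 44 genes, the STIM1KO response 1 higher and 0 lower, and the difference of responses 1 higher and 1 lower. Between genotypes 0 were lower after sham, and 0 were higher and 0 lower after TAC. With median centring, the STIM1KO response had a median of -0.03, with 3 genes higher and 5 lower at 1.5-fold. Under that setting 1 was lower between the sham hearts, and 3 were higher and 6 lower between the TAC hearts. The heart minus liver difference of the Cox6a pair, STIM1KO response minus WT response, was -1.17 with median centring and as deposited, against -1.28. STIM1KO sham then held the highest value of 8 genes with centring and of 2 as deposited, and STIM1KO TAC that of 13 with centring. As deposited, 1 gene was lower in the STIM1KO response, and 3 were higher and 6 lower between the TAC hearts. With the offset 1 was lower between the sham hearts. Quantile normalization over shared probes gave 1 lower there, 4 lower between the TAC hearts and 2 genes highest on STIM1KO sham. It also gave 4 higher in the STIM1KO response. Without the 4 dim genes, 0 were lower in the WT response, 1 was lower between the sham hearts and 0 were highest on STIM1KO sham. Current symbols and subunits only kept every count at 1.5-fold, and took the genes above 0 in the STIM1KO response from 28 to 30 and 26. The mean over probes could change nothing, since each gene has 1 probe. Over the scalings tried, the sign of a gene's difference turned for 3 to 8 of the 44 genes per comparison, none with a size above 0.21. No paired analysis was possible because each group has 1 array. The causes of these shifts were not tested.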
